A study of Mus musculus with 12 samples.

Results

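In mouse forelimb buds, 1030 of 34034 H3K27ac regions (3.03%) carried a called peak in both replicates from DMSO-treated embryos and in neither replicate from C59-treated embryos. These DMSO-only regions were chosen by presence in the peak lists. All peaks of the 4 H3K27ac replicate lists on chromosomes 1 to 19 and X were merged where they shared at least 1 bp, and a region was kept when both DMSO lists and no C59 list held a peak in it. H3K27ac values therefore describe these regions and test nothing about them, whereas β-catenin occupancy, genomic position and DNA sequence were not used by the selection. Beside them stand 17468 shared regions, which all 4 lists held, and the mirror class of 732 C59-only regions, which both C59 lists and no DMSO list held (2.15% of all regions).

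All embryos were wild-type Swiss Albino. C59, which blocks the acyltransferase porcupine and with it the secretion of WNT ligands, or DMSO as the solvent control, was injected into the pregnant females at E10.5, and forelimb buds were dissected 6 h later. Chromatin was immunoprecipitated with antibodies against H3K27ac or β-catenin, with 2 replicates per antibody and treatment from pooled forelimb buds. The comparison asks which active regulatory regions of the limb bud are called when WNT ligands are secreted and not when secretion is blocked. A whole forelimb bud holds mesenchyme, ectoderm, muscle precursors and vessels, so a weak region may be marked weakly in many cells or strongly in few, and ChIP of whole buds cannot tell these apart.

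Acetylation of lysine 27 of histone H3 marks active promoters and enhancers, and its level at an enhancer usually follows the activity of that enhancer. In canonical WNT signaling, secreted WNT ligands stabilize β-catenin, which enters the nucleus and is held on DNA by TCF/LEF factors, where it recruits co-activators that include histone acetyltransferases. In limb buds, WNT signals act on the mesenchyme together with FGF, BMP and SHH signals to direct outgrowth, dorso-ventral pattern and the onset of digit formation.

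Strong β-catenin summits with a TCF/LEF motif inside DMSO-only regions are shown by 4 sequences. Each is the 100 bp window at the strongest β-catenin summit inside a DMSO-only region, taken from the 10 regions with the highest β-catenin fold enrichment, and 4 of the 6 whose window held a TCF/LEF core are given. Capitals mark the core, ATCAAAG or TTCAAAG. All 4 are on the plus strand of GRCm38 (mm10), 5′ to 3′. The window chr5:128684659-128684758 lies in intergenic sequence 17.4 kb upstream of Piwil1, a PIWI protein gene, and Fzd10, a WNT receptor gene, is the neighbour on the other side at 84.3 kb. The H3K27ac region itself begins inside this window. The window chr5:141139473-141139572 is intergenic, 102.1 kb upstream of the cell adhesion gene Sdk1. The window chr6:71048610-71048709 is intergenic between Foxi3, a forkhead factor gene, at 91.99 kb and Thnsl2 at 83.4 kb. The window chr9:69302020-69302119 is intronic in Rora, a nuclear receptor gene, 12.02 kb downstream of the nearest TSS, and carries 2 cores.
Piwil1: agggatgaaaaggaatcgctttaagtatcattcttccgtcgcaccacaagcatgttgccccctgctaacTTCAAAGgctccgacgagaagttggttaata
Sdk1: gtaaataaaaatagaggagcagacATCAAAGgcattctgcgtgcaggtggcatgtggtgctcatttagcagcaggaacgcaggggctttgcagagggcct
Thnsl2: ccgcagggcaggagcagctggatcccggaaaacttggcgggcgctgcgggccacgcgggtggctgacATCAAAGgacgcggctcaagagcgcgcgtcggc
Rora: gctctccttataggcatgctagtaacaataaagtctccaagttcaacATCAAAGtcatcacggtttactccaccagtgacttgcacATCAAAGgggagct

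The 4 H3K27ac lists were of similar size, with 23049 to 26444 peaks on the chromosomes used. Sequencing depth was solved from the fold enrichment and p-value of each row. It was 5.03 and 5.39 Gb of fragments in the DMSO libraries and 5.93 and 5.56 Gb in the C59 libraries. The lowest expected coverage was 2.69 and 2.88 fragments in DMSO and 3.17 and 2.98 in C59. The part of depth in the missing calls was not tested. Lists differed within a treatment as well as between treatments. Between replicates of one treatment, 11.5 to 22.2% of the regions of one list were absent from the other, against 13.4 to 24.6% between lists of different treatments. The DMSO-only class was larger than each of the 4 classes held by 1 DMSO and 1 C59 list, which counted 225 to 856 regions, and larger than the 732 C59-only regions. Of those 4 classes, the ones with C59 replicate 2, the shortest list, counted 225 and 379, and those with C59 replicate 1 counted 602 and 856. The part of list length in the order of class sizes was not tested.

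**Figure D1:**
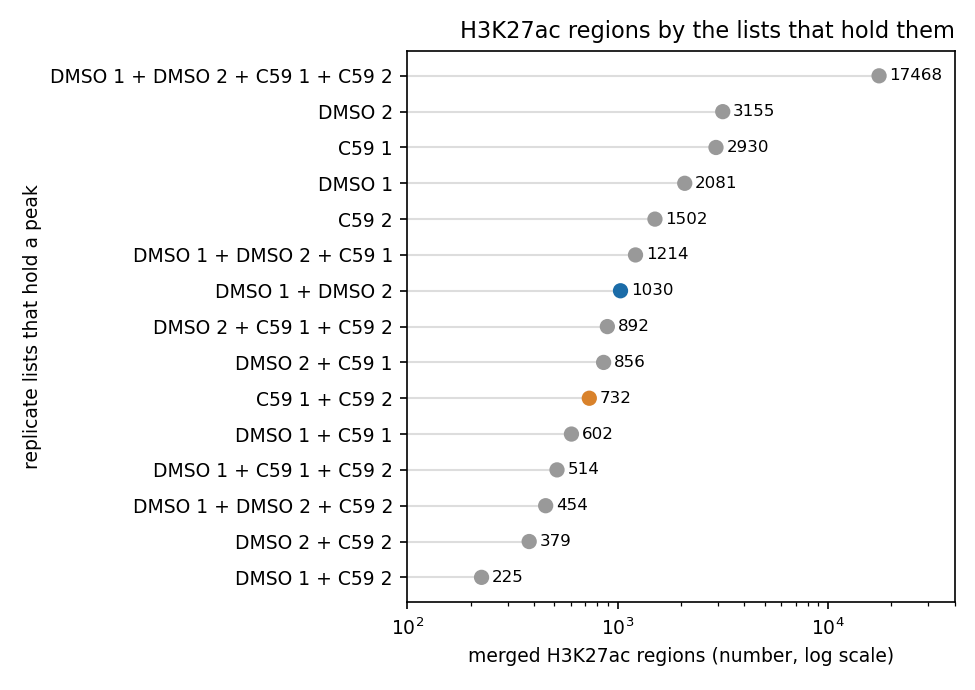
Number of merged H3K27ac regions (x axis, log scale) for each combination of replicate lists that held a peak (y axis). The DMSO-only class (blue) held 1030 regions, the C59-only class (orange) 732, and 17468 regions were in all 4 lists.

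Weak regions made up the class. Of the 20166 regions in both DMSO lists, 5.11% were in neither C59 list, and this share fell with the fold enrichment. The share was 19.7% below a mean DMSO fold of 3, 18.97% between 3 and 4, 7.33% between 4 and 5, 1.67% between 5 and 7 and 0.0622% at 7 or more, where 6 of 9644 regions were DMSO-only. The reverse share, regions of both C59 lists that were in neither DMSO list, was 3.73% of 19606 and followed the same course, with 18.8% below 3, 14.8% between 3 and 4, 5.05% between 4 and 5, 0.593% between 5 and 7 and 0 of 9437 at 7 or more, which allows up to 0.0407% (upper 95% Wilson limit). The selection used these same values, so the shares describe the class and were not tested. The 95% Wilson intervals drawn with them cover counting error only.

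**Figure D2:**
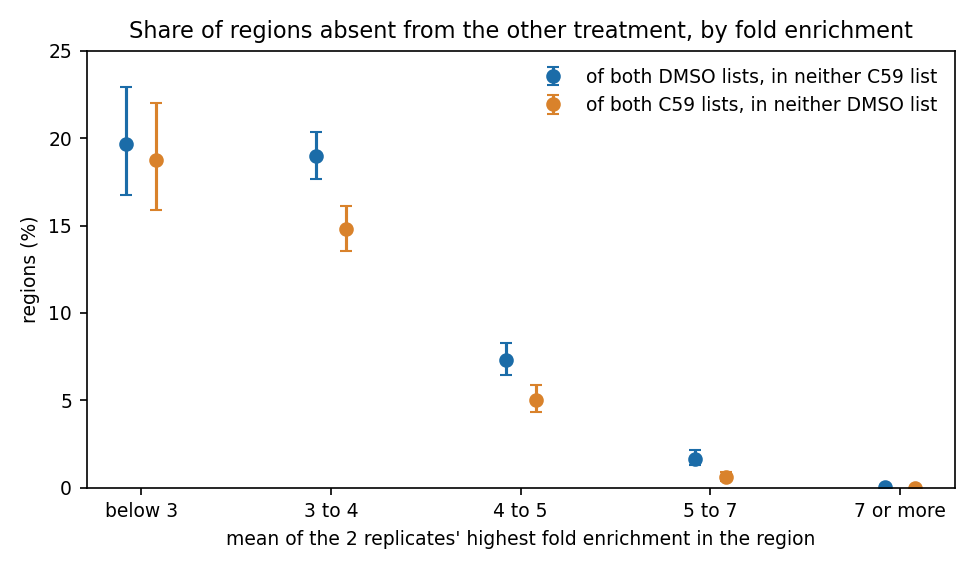
Share of regions (y axis, percent) in both lists of one treatment that neither list of the other treatment held, by the mean of the 2 highest fold enrichments (x axis). Points are shares with 95% Wilson intervals, blue for DMSO and orange for C59. Both shares fell from near 19% at low fold to 0.0622% and 0% at a fold of 7 or more.

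The median DMSO-only region was 372 bp wide and reached a fold of 3.63 in DMSO replicate 1 and 3.57 in replicate 2, with a range of 1.62 to 10.3 and 1.57 to 8.50. At the summit this corresponds to a median of 15 fragments in each library, where 2.90 and 3.08 were expected. Shared regions were wider, with a median of 842 bp, and stronger, with median folds of 7.59, 7.86, 7.82 and 7.35 in DMSO replicates 1 and 2 and C59 replicates 1 and 2. In 961 of the 1030 DMSO-only regions (93.3%) the folds of the 2 DMSO replicates differed by less than 1.5 times. Selection required a peak in both DMSO lists and most folds were low, so this share does not measure how well the replicates match. C59-only regions had the same median width of 372 bp and median folds of 3.55 and 3.51 in the C59 lists.

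These values lay near the limit of peak calling. At the lowest expected coverage, the weakest listed summit had 10 fragments in each DMSO library and 11 in each C59 library, and a count of 15 has an exact Poisson interval of 8.40 to 24.7 (95%, counting error only). Absence from a C59 list therefore says that no peak passed the threshold. It does not give the H3K27ac level in C59, for which the C59 replicate lists hold no value in these regions. Just inside the class, the region in an intron of Camsap2 had a −log10 q of 1.31 in DMSO replicate 1 and 2.67 in replicate 2, the intronic region nearest to the homeobox gene Gbx2 had 2.52 and 1.31, and the promoter of Vkorc1l1, a vitamin K reductase gene, had 1.31 and 4.92. Just outside it, an intronic region of the actin capping gene Capzb with folds of 4.27 and 4.63 in DMSO was held by C59 replicate 1 at a −log10 q of 1.31. In both DMSO lists and 1 C59 list stood 1668 regions, with a median C59 fold of 3.59 and a median mean DMSO fold of 3.86, beside 3.62 in the DMSO-only class.

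Distal positions prevailed. Of the DMSO-only regions, 781 (75.8%, 95% interval 73.1 to 78.3%) had their summit 1 kb or more from every annotated TSS, with 400 intergenic, 356 intronic and 25 exonic, and 249 (24.2%, 21.7 to 26.9%) lay at a promoter. Shared regions were at a promoter in 68.9%, a difference of −44.7 percentage points (95% Newcombe interval −47.3 to −41.9). C59-only regions were at a promoter in 15.6%, and the DMSO-only share was higher by 8.60 points (4.83 to 12.25). A region of both DMSO lists was DMSO-only in 1.95% of 12792 promoter regions and in 10.6% of 7374 distal regions. The median distance to a TSS was 9.215 kb for DMSO-only, 0.221 kb for shared and 10.9 kb for C59-only regions.

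At promoters, DMSO-only regions stood on sequence with fewer CpG dinucleotides than shared ones. The 200 bp around the summit held a median of 8 CpGs at 58% GC in DMSO-only promoters and 18 CpGs at 67.5% GC in shared promoters. C59-only promoters also held a median of 8 CpGs. Distal DMSO-only and shared regions differed less, with medians of 3 and 4 CpGs. Of the 249 promoter regions, 201 lay at the TSS of a protein-coding gene, 14 at that of a lincRNA, and the others at antisense, pseudogene and other transcripts. Some DMSO-only regions lay close to sequence that C59 lists held: 175 (17.0%) were within 500 bp of a peak in a C59 list, as did 164 of the C59-only regions (22.4%) relative to a DMSO list.

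The 12 regions with the highest mean fold included 8 promoters, and 1 of the 12 overlapped a β-catenin peak. The strongest was the promoter of Thg1l, which encodes a tRNA guanylyltransferase (chr11:45955244-45955622), with a fold of 10.3 in DMSO replicate 1 and 5.15 in replicate 2, from 37 and 19 fragments. Its replicates were the most apart of the 12. The promoter of Shmt2, the mitochondrial serine hydroxymethyltransferase (chr10:127522022-127522379), reached 6.78 and 8.24. That of Slc25a44, a mitochondrial carrier of branched-chain amino acids (chr3:88425403-88425683), reached 8.18 and 6.47, and a C59-only region was also nearest to Slc25a44. In these promoters the lower of the 2 replicates stayed above the median of the whole class, though the same 2 folds had chosen them. The other promoters were those of Ccdc158 (5.84 and 7.47), Plppr2 (7.05 and 6.18), Pak7, a p21-activated kinase gene (6.24 and 6.95), Sgms2, a sphingomyelin synthase gene (6.51 and 6.44), and Ryr1, the calcium release channel of skeletal muscle (5.96 and 6.69). Of the 4 intergenic regions, that near Pls3, which encodes the actin-bundling plastin 3, had 7.86 and 7.44 at 93.2 kb, that near Cfap126 6.51 and 8.50 at 11.3 kb, and that near Znfx1 7.21 and 6.95 at 9.05 kb. The fourth, 23.8 kb upstream of Fam174b (chr7:73716335-73716665), had 6.51 and 6.95. It was the one with β-catenin, at a fold of 6.96 in the consensus list, and a TCF/LEF core stood within 100 bp of that β-catenin summit. None of these genes belongs to the WNT or limb patterning lists used below.

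Genes of limb signaling and patterning were nearest to a small share of the class. Of the DMSO-only regions, 66 (6.41%) had their nearest protein-coding TSS at one of the 376 genes in 9 lists, against 47 of the C59-only regions (6.42%). Since distal regions drop out more often, the distal regions give the like comparison: 56 of 781 DMSO-only (7.17%), 43 of 618 C59-only (6.96%) and 464 of 5437 shared regions (8.53%) lay nearest to a listed gene. Per list, the distal count is read against the 10.6% of all distal regions in both DMSO lists that were DMSO-only, and the reverse count against the 8.67% of 7126 distal regions in both C59 lists that were C59-only. Nearest genes were assigned by distance, and no contact between region and gene was measured. Overlap with β-catenin means at least 1 bp of its peak, and the β-catenin summit can lie outside the region. Of the 214 DMSO-only regions that overlapped a DMSO consensus peak, 80 held a consensus summit.

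Along the WNT pathway, 11 DMSO-only regions were nearest to 10 of the 93 annotated genes of the list, 2 of them at a promoter, and 9 of 121 distal regions in both DMSO lists (7.44%) were DMSO-only, with 8 of 117 (6.84%) in the reverse direction. The regions of 4 genes that restrain or potentiate WNT signaling overlapped β-catenin, and the other 7 did not. The region 18.4 kb downstream of the nearest TSS of Axin2, the feedback inhibitor that scaffolds the β-catenin destruction complex (chr11:108961800-108962605), had H3K27ac folds of 5.27 and 4.25 and overlapped a β-catenin peak of fold 16.7 with a TCF/LEF core at its summit. In an intron of Wif1, a secreted WNT inhibitor (chr10:121041240-121041704), the folds were 4.48 and 3.31, and the overlapping β-catenin peak reached 16.8, again with a core. An intronic region of Rspo2, an R-spondin that potentiates WNT receptors (chr15:43114593-43114911), had 3.795 and 4.38 with β-catenin at 8.58, and the region 18.6 kb upstream of Apcdd1, a membrane inhibitor of WNT signaling, had 3.33 and 4.34 with β-catenin at 8.62. In both, no core stood within 100 bp of the β-catenin summit. The β-catenin summits at Axin2, Wif1 and Apcdd1 lay outside the called region, and that at Rspo2 lay inside. At promoters, Dkk2, a secreted LRP5/6 ligand (chr3:132085322-132086168), had 3.62 and 3.76, and a further DMSO-only region was nearest to it. The region 1.399 kb from the TSS of Rspo3 had 3.86 and 2.59 and was classed as a promoter because an antisense transcript, Gm48159, starts 249 bp away. Neither of these overlapped β-catenin. Around Axin2, 4 other regions were in all 4 lists, so H3K27ac around it was also called in C59.

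Of the BMP and TGF-β genes, 12 regions lay nearest to 11 of 42 genes, all distal, which is 14.1% of the 85 distal regions in both DMSO lists. In the reverse direction, 5 of 69 distal regions were C59-only (7.25%). Msx1 and Msx2 are homeobox genes that respond to BMP signals in the limb bud. The region nearest to Msx1 lay 77.7 kb upstream, and the stronger of 2 nearest to Msx2 lay 248.1 kb upstream. Msx1 had folds of 4.07 and 3.86 and β-catenin at 6.45, and this Msx2 region had 3.53 and 4.34 and β-catenin at 5.64. The weaker Msx2 region, 111.4 kb upstream, had 3.25 and 3.35 and overlapped no β-catenin peak. Inhba, an activin subunit gene, had 4.07 and 3.86 at 188.7 kb, and Tgfb2, a TGF-β ligand gene, had 3.70 and 3.78 at 143.0 kb, with no overlapping β-catenin peak. The mean folds of the list had a median of 3.42, beside 3.62 for the class, and reached at most 3.96.

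Among FGF genes, 7 regions lay nearest to 6 of 26 genes, and 6 of 46 distal regions in both DMSO lists (13.0%) were DMSO-only, with 4 of 49 (8.16%) in the reverse direction. Fgf10, the mesenchymal ligand that maintains the apical ridge, had an intronic region (chr13:118732324-118732671) at 5.19 and 3.35, with the nearest β-catenin summit 3.44 kb away. Fgfr2, a receptor for FGF10, had 4.03 and 4.35 at 22.9 kb, Flrt3, an FGF receptor partner, 3.25 and 4.12, and Dusp4, a MAP kinase phosphatase gene, 2.98 and 4.12. At the promoter of Il17rd, the FGF antagonist SEF, the region had low folds of 2.80 and 2.37 from as many as 89 and 79 fragments, where 31.1 and 32.7 were expected. The expected coverage around it was thus high, and 6 further regions nearest to Il17rd were in all 4 lists. The region of the list nearest to the ERK inhibitor gene Spred1 had folds of 2.98 and 2.83 and overlapped a β-catenin peak of 11.8 with a core, and it is named here because of that value.

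The hedgehog list gave 4 regions, all distal, of 44 in both DMSO lists (9.09%), and 3 of 45 in the reverse direction (6.67%). They were nearest to Gli3 (4.68 and 3.26) and Gli2 (4.34 and 3.53), transcription factors of the pathway, to Gas1, a SHH co-receptor gene (3.61 and 3.37), and to Ptch1, the SHH receptor and feedback gene (2.98 and 3.57). Only the Gli3 region, 250.4 kb upstream, overlapped β-catenin, at 6.77. Retinoic acid and Notch genes had 5 regions, 3 of them among 45 distal regions (6.67%), with 0 of 45 in the reverse direction. The one nearest to Hes1, a Notch-responsive repressor, lay 79.2 kb downstream of its TSS (chr16:30145387-30145735) with folds of 4.07 and 3.60 and β-catenin at 8.42. A core stood within 100 bp of both the H3K27ac and the β-catenin summit. These summits were 48 bp apart, so the windows overlap and the same core may count for both. At the promoter of the receptor gene Notch1 the folds were 3.06 and 3.47, and the regions nearest to the ligand gene Dll4 and the retinaldehyde dehydrogenase gene Aldh1a3 had 3.08 and 3.79, and 3.09 and 2.83. None of these 3 overlapped β-catenin.

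Limb patterning transcription factors held the largest group: 20 regions lay nearest to 15 of 65 genes, 8 of the 20 overlapped β-catenin, and 17 of 132 distal regions in both DMSO lists (12.9%) were DMSO-only, against 9 of 126 (7.14%) in the reverse direction. A region 109.4 kb downstream of Tfap2c, an AP-2 factor gene (chr2:172661353-172661732), had 3.72 and 6.14 and overlapped β-catenin of fold 19.7 with a core at its summit. That β-catenin summit lay outside the region, 326 bp from the H3K27ac summit. For Lmx1b, which specifies dorsal mesenchyme downstream of WNT7A, an intronic region had 5.04 and 4.52 with a core at the H3K27ac summit, 5.10 kb from the nearest β-catenin summit. A further DMSO-only region, 42.8 kb upstream of Lmx1b, had 3.25 and 3.35. It held a β-catenin summit of fold 7.86 without a core, 6 bp from the H3K27ac summit. Irx3, an Iroquois factor gene, had 5.10 and 3.87 at 124.6 kb with β-catenin at 5.54, and Foxp4 4.57 and 4.23 without. A region 115.3 kb upstream of Twist2 had 4.55 and 3.34, and it is named here because it overlapped a β-catenin peak of 28.9. A further Twist2 region, 40.8 kb upstream, had 4.42 and 3.96 with β-catenin at 5.91. Neither β-catenin summit had a core. Promoter regions were those of Dlx5 (4.61 and 3.60), a distal-less factor gene active in the ridge and distal mesenchyme, Foxp1 (2.95 and 3.09) and Tfap2a (2.57 and 2.41). The promoter was the only region nearest to Dlx5 in both DMSO lists, and no peak of a C59 list lay within 1 kb of its TSS.

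Hox genes gave no DMSO-only region among 17 distal regions in both DMSO lists and 1 among all 64 (1.56%), beside 5.11% of all regions and 1.95% of promoter regions. It was the promoter of Evx1, the even-skipped homologue beside the HoxA cluster (chr6:52313647-52314234), with 3.795 and 3.86 and an overlapping β-catenin peak of 4.43, with the summits 521 bp apart. Of the β-catenin DMSO replicate lists, only that of replicate 1 held a peak that reached it. In the chondrogenesis list the order was turned around, with 4 of 85 distal regions (4.71%) DMSO-only and 11 of 96 (11.5%) C59-only. The 4 were nearest to Sox9, the master factor of cartilage (3.795 and 4.89 at 161.0 kb upstream), Sox11 (3.795 and 3.35), the matrix gene Matn1 (3.24 and 3.67, with β-catenin at 8.40 in the consensus list, whose peak reached the region while those of the replicate lists did not) and Sox6 (2.88 and 3.44). Cell cycle genes had 1 of 24 distal regions DMSO-only (4.17%) and 3 of 27 C59-only (11.1%), so the reverse share was the higher one here too. Their 2 regions were nearest to the inhibitor gene Cdkn1c (3.63 and 3.41) and at the promoter of Ccne2, a cyclin E gene (2.34 and 2.48). The list shares rest on 1 to 20 regions each and are descriptions.

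**Figure D3:**
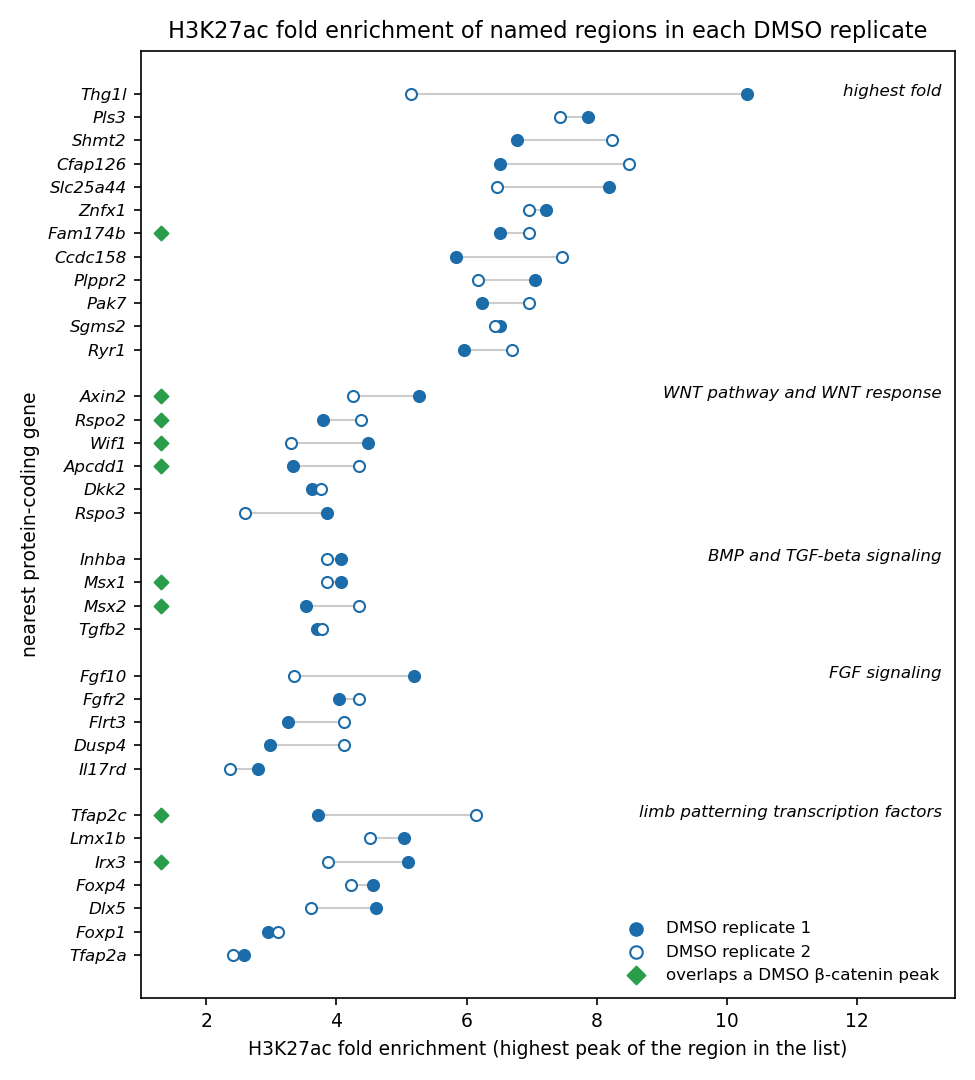
H3K27ac fold enrichment (x axis) of the 12 strongest DMSO-only regions and of those named by rank or as promoters from 4 gene lists, by nearest protein-coding gene (y axis). Filled and open circles are DMSO replicates 1 and 2, and green diamonds mark regions that overlap a DMSO β-catenin consensus peak. The strongest regions lie between 5.15 and 10.3, mostly without β-catenin, and Axin2, Wif1 and Tfap2c lie at 3.31 to 6.14 with it.

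Few genes had several DMSO-only regions. The 1030 regions were nearest to 939 genes, 77 genes were nearest to at least 2 regions and 12 to at least 3. Jazf1, a zinc finger gene beyond the HoxA cluster, and Zfhx3, a homeobox and zinc finger gene, had 4 regions each. Of those at Jazf1, the one at 1.498 kb from a TSS had 5.03 and 3.69 and overlapped a β-catenin peak of 16.7, and the other 3 had means of 2.71 to 3.17. At Zfhx3, 3 of the 4 overlapped β-catenin, at 4.82, 12.8 and 6.05 in the consensus list. A peak of a replicate list reached them in replicate 2 only, replicate 1 only and replicate 2 only. Of its 21 regions in both DMSO lists, 10 were in all 4 lists. Among the genes with 3 regions was Fmn1, whose gene body and flank hold limb enhancers of the neighbouring BMP antagonist gene Grem1. All 3 of its regions overlapped a β-catenin peak of high fold with a core at the β-catenin summit. These summits lay outside the called regions, 555, 474 and 120 bp from the H3K27ac summits. For the intronic region, only β-catenin DMSO replicate 1 held a peak that reached it. In an intron (chr2:113498330-113498730) the H3K27ac folds were 5.42 and 3.60 with β-catenin at 18.5, in an exon (chr2:113693017-113693325) 3.79 and 2.83 with 16.9, and in intergenic sequence (chr2:113724162-113724603) 4.97 and 4.38 with 23.2. Of the 5 regions nearest to Fmn1 in both DMSO lists, 2 were in all 4 lists. Zfp608, the zinc finger gene in a gene desert, had 25 regions in both DMSO lists, of which 22 were in all 4, and 2 of its 3 DMSO-only regions held β-catenin at 12.5 and 11, each with a core. The others with 3 regions were 3110018I06Rik, Foxp1, Gm12728, Itpr2, Klf12, Plxna4, Rbm5 and the nonagouti gene a, with mean folds of 2.52 to 4.40. β-Catenin overlapped 1 region each of 3110018I06Rik, Foxp1, Gm12728, Klf12, Plxna4 and a, and none of Itpr2 or Rbm5. At 3110018I06Rik only replicate 2 held such a peak, and at a only replicate 1.

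Markers of the cell types in a forelimb bud were read from H3K27ac peaks within 1 kb of a TSS. All 12 limb mesenchyme markers were listed in each of the 4 libraries. Of 16 ectoderm and ridge markers, DMSO replicates 1 and 2 listed 5 and 7 and C59 replicates 1 and 2 listed 6 and 4, and Fgf8, Sp6, Trp63 and the keratin genes Krt5, Krt8 and Krt14 were listed in none. Muscle precursor markers were 5 of 9 in each library, endothelial markers 3 to 5 of 13, blood markers 4 or 5 of 14 and neural crest and neuron markers 3 or 4 of 14. Of 7 hindlimb markers, Tbx4 was listed in all 4 libraries, Isl1 in DMSO replicate 2 and both C59 libraries, and Pitx1 and 4 Hoxc genes in none, and 1 DMSO-only region was nearest to Tbx4. Of all markers, Dlx5 and the blood factor gene Nfe2 had a DMSO-only region at a promoter, and for Nfe2 each C59 list also held a peak within 1 kb of a TSS. The part of these cell types in the DMSO-only class was not tested.

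β-Catenin was called in DMSO and nearly lost from the lists in C59, with 19080 and 24286 peaks against 244 and 279. Depth was 2.93 and 3.39 Gb in DMSO and 3.42 and 3.40 Gb in C59, and its part in these counts was not tested. Of the DMSO-only regions, 214 (20.8%, 95% interval 18.4 to 23.4%) overlapped a peak of the DMSO consensus list, which the authors called on both replicates together. Of the shared regions 22.8% did, a difference of −2.03 points (95% Newcombe interval −4.48 to 0.626). Within 500 bp of the H3K27ac summit the difference was 2.49 points (−0.175 to 5.32), and both intervals included 0. With the list of β-catenin DMSO replicate 1 it was −7.31 points (−9.81 to −4.60), and with that of replicate 2 −12.5 points (−15.1 to −9.75). These 2 intervals excluded 0, so the comparison depended on the β-catenin list. By replicate, 21.7% and 23.7% overlapped a peak in DMSO and 0.194% in each C59 library, a difference of 22.5 percentage points. The exact permutation test over the 4 libraries gave a two-sided p of 0.33, which is the smallest that 2 against 2 libraries allow. The 2 DMSO-only regions with β-catenin in C59 were the same in both replicates and are named below. The drop was not particular to the class. By replicate, shared regions overlapped a peak in 29.1% and 36.2% in DMSO and in 0.641% and 0.744% in C59. C59-only regions did so in 20.8% and 25.3% in DMSO and in 0.683% and 0.820% in C59.

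DMSO β-catenin also overlapped 21.99% of the C59-only regions, and a difference from the DMSO-only regions was not detectable. It was −1.22 points (95% Newcombe interval −5.15 to 2.63), and among distal regions it was −0.0791 points (−4.67 to 4.44), from 24.8% and 24.9%. Of the shared distal regions 39.6% overlapped β-catenin, and the distal DMSO-only share differed from this by −14.7 points (−17.9 to −11.3). In a window of fixed width, 500 bp to either side of the H3K27ac summit, 30.7% of distal DMSO-only and 40.4% of distal shared regions met β-catenin, and the difference was −9.72 points (−13.1 to −6.15), smaller than for whole regions. The part of region width in either difference was not tested. At promoters the shares were 8.03% for DMSO-only and 15.2% for shared regions. Among DMSO-only regions, intergenic ones overlapped at 29.0% of 400 and intronic ones at 21.1% of 356. In C59-only regions these shares were 33.8% and 16.8%, and in shared regions 40.6% and 39.9%.

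The distance between summits describes the same regions on a finer scale, and its bins were not tested. Of the distal DMSO-only regions, 111 (14.2%) had a β-catenin summit less than 250 bp from the H3K27ac summit, against 62 distal C59-only regions (10.03%). Between 250 and 500 bp stood 105 (13.4%) and 111 (17.96%). Within 500 bp the shares came to 27.7% and 27.99%. A β-catenin summit inside the called region was found in 73 distal DMSO-only regions (9.35%) and 40 distal C59-only regions (6.47%), a difference of 2.87 points whose interval of −0.0145 to 5.68 included 0.

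**Figure D4:**
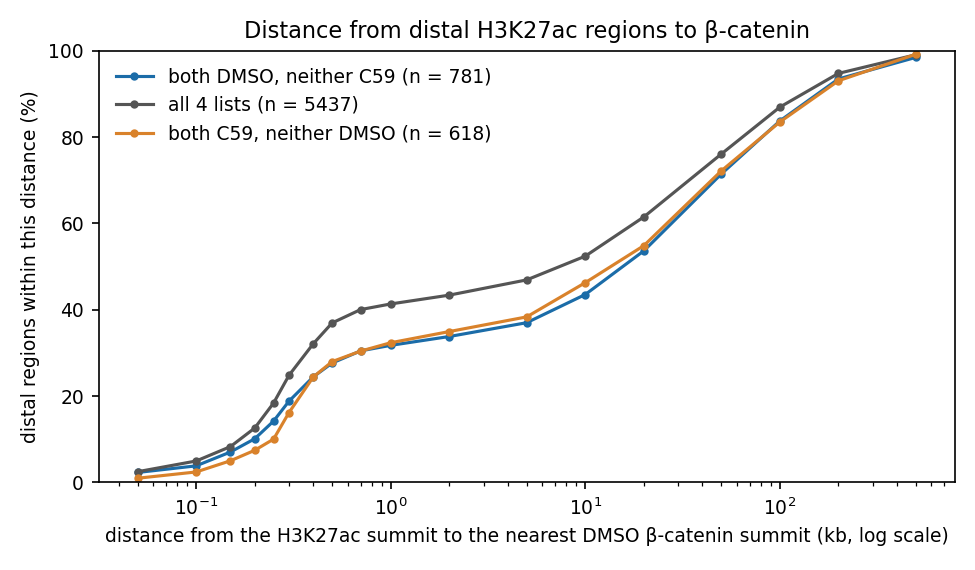
Cumulative share of distal H3K27ac regions (y axis, percent) by distance from the H3K27ac summit to the nearest DMSO β-catenin summit (x axis, kb, log scale), for DMSO-only (blue), shared (grey) and C59-only (orange) regions. At 0.25 kb the curves stand at 14.2, 18.4 and 10.03%, and at 0.5 kb the blue and orange curves stand at 27.7 and 27.99%, below the grey one.

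The 10 DMSO-only regions with the strongest β-catenin summit inside had β-catenin folds of 13.0 to 27.8. The region near Piwil1 led with 25.8 in each β-catenin DMSO replicate and H3K27ac folds of 4.88 and 3.60, and no other region nearest to Piwil1 was in both DMSO lists. An intronic region of Slit1, an axon guidance gene (chr19:41716138-41716463), followed with 22.3 and 24.6, and its H3K27ac was weak at 3.52 and 2.83. Here β-catenin was also listed in C59, at 7.78 and 7.51. A second such region lay 12.2 kb downstream of the TSS of Myl12b, a myosin light chain gene (chr17:70963692-70963892), with β-catenin at 13.2 and 15.997 in DMSO and 12.4 and 12.1 in C59. These were the 2 DMSO-only regions with a C59 β-catenin peak, and neither held a TCF/LEF core at the β-catenin summit. In an intron of Spink13, a protease inhibitor gene, β-catenin reached 15.9 and 16.4, H3K27ac was high at 5.17 and 7.0997, and a core was present. The regions near Sdk1 (β-catenin 14.5 and 13.6, H3K27ac 3.69 and 3.81) and Thnsl2 (11.4 and 14.6, H3K27ac 4.88 and 4.12) and in introns of Slc38a10 (13.6 and 11.2, H3K27ac 3.85 and 4.43) and Rora (11.9 and 11.7, H3K27ac 4.72 and 5.45) held a core as well. The promoter of the zinc finger gene Zfp354b (12.3 and 11.3, H3K27ac 4.61 and 7.21) and an intron of Mipep, a mitochondrial peptidase gene (10.6 and 11.8, H3K27ac 2.93 and 2.88), held none. A TCF/LEF core was thus present at 6 of the 10 summits.

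TCF/LEF cores were frequent where β-catenin lay inside a DMSO-only region. The 80 regions with a summit inside held 86 β-catenin summits, and 40 of these (46.5%, 95% Wilson interval 36.3 to 56.98%) had a core within 100 bp on either strand. In shared regions 621 of 3509 summits (17.7%) had one, in C59-only regions 10 of 46 (21.7%), and among all 16189 DMSO consensus summits 28.6%. The difference from shared regions was 28.8 points (95% Newcombe interval 18.6 to 39.4) and that from C59-only regions 24.8 points (7.60 to 38.9). Within distal regions the shares were 50.6%, 19.7% and 22.7%, with differences of 30.9 (19.9 to 41.8) and 27.9 points (10.02 to 42.5). This comparison was chosen after the data were examined, and the intervals treat summits as independent.

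The β-catenin summits inside DMSO-only regions were also stronger, with a median fold of 7.78 against 5.85 in shared and 6.48 in C59-only regions, and strong summits carry cores more often. Among summits of a fold below 7, a core was present in 11 of 39 (28.2%), 277 of 2297 (12.1%) and 4 of 27 (14.8%) in DMSO-only, shared and C59-only regions. Among those of 7 or more it was present in 29 of 47 (61.7%), 344 of 1212 (28.4%) and 6 of 19 (31.6%). The DMSO-only share was the highest of the 3 on either side of this fold, although its interval overlapped that of the C59-only regions in each. By the list of each β-catenin DMSO replicate alone, 42.9% and 32.8% of the summits inside DMSO-only regions had a core, against 23.1% and 16.1% in C59-only regions.

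**Figure D5:**
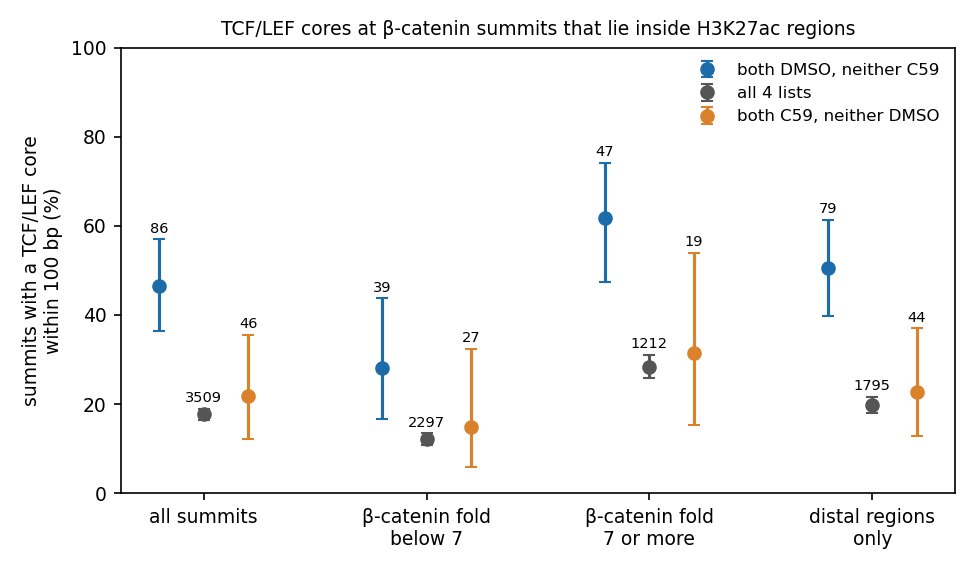
Share of DMSO β-catenin summits with a TCF/LEF core within 100 bp (y axis, percent) for summits inside DMSO-only (blue), shared (grey) and C59-only (orange) H3K27ac regions, in all summits, by β-catenin fold and in distal regions (x axis). Points are shares with 95% Wilson intervals, and the number of summits stands above each. The blue points are highest in each group, at 46.5, 28.2, 61.7 and 50.6%.

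At the H3K27ac summits themselves, cores were less frequent. Within 200 bp windows, 89 DMSO-only regions (8.64%, 7.07 to 10.51%) held ATCAAAG or TTCAAAG on either strand, against 3.65% of shared and 7.104% of C59-only regions. Among distal regions the shares were 10.4%, 6.84% and 8.09%. The difference from shared distal regions was 3.53 points (1.46 to 5.95) and that from C59-only ones 2.28 points (−0.824 to 5.29). Distal DMSO-only regions that overlapped β-catenin had a core at the H3K27ac summit in 37 of 194 (19.1%, 14.2 to 25.2%), and those that did not in 44 of 587 (7.50%, 5.63 to 9.91%).

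Of 7 other words searched on both strands of the same windows, one differed in share between DMSO-only and C59-only regions beyond counting error. The word AGATAA of GATA factors stood in 6.505% of DMSO-only and 9.56% of C59-only regions, a difference of −3.06 points (−5.77 to −0.508), and within distal regions the difference of −2.54 points had an interval of −5.59 to 0.374, which included 0. The AP-1 word TGANTCA was present in 5.63% of distal DMSO-only and 5.99% of distal C59-only regions. For the homeodomain word TAATTA these shares were 4.23% and 3.56%. The word CATAAA, which posterior HOX factors bind, gave 9.09% and 10.4%. The E-box CAGCTG gave 16.4% and 15.2%. For the RUNX word TGTGGT the difference from distal C59-only regions was 0.675 points (−2.79 to 4.04). Against shared distal regions, the ETS word CCGGAAG differed by −1.49 points (−2.01 to −0.626), and the intervals of the other 6 words included 0. A match of letters in a window is a description of the sequence and not of binding.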

How the data were processed

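H3K27ac and β-catenin ChIP-seq of forelimb buds gave 8 deposited replicate lists and 4 consensus lists. The authors trimmed reads with Cutadapt (4.1 in the submitters' processing notes, another version in the methods), mapped them to mm10 with Bowtie2 2.4.5 and called peaks with MACS2 2.2.7.1 without input. The consensus lists came from both replicates called together after de-duplication in Picard 2.27.4 and subsampling to equal depth, and hold a peak where its summit lay in a peak of each replicate. Deposited values are a fold enrichment at each summit and p- and q-values as −log10. The fold is the ratio of coverage to the coverage expected in that library, taken after the same small constant is added to both. At low counts it is therefore smaller than the plain ratio of fragments to expected fragments. Fold and p were solved for fragments at the summit (tolerance 0.01 of −log10 p, rows up to 250). The 4 input samples have no list and were not used here.

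Peaks were merged at 1 bp. Positions were read on GENCODE M21 (GRCm38), where a promoter is a summit less than 1000 bp from a TSS of any transcript, and sequence came from RefSeq GRCm38. Python 3.11.15, numpy 2.4.6, pandas 2.3.3 and scipy 1.17.1 were used. Functions were tested on simulated data. Shares carry Wilson and differences Newcombe intervals (95%, counting error only), and libraries were compared by the exact permutation test. Members and gene lists were chosen with earlier results of these data known. Named are the 12 strongest regions, the 4 strongest and all promoter regions of each list, the 10 with the strongest β-catenin summit inside, genes with the most regions, and the 3 regions next to the threshold on either side, of which 1 outside is printed. Regions near Spred1 and Twist2 and further regions of Lmx1b and Msx2 were added outside these rules. Alternatives covered thresholds, merging, TSS and window limits, consensus lists and each left-out replicate.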

Additional observations from a re-analysis of the deposited data

Results flagged for a closer look

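Of the 1030 DMSO-only regions, 15 overlapped a peak of the C59 consensus list, which was not used to choose them, although neither C59 replicate list held a peak there. No summit of that list lay inside a DMSO-only region. At the promoters of Mbtps1, Mark3 and Supt20 the overlapping C59 consensus peak reached a fold of 21.7, 15.2 and 13.2, while the DMSO-only region beside it had folds of 3.32 and 2.94, 2.62 and 2.84, and 3.36 and 3.37. An intergenic region nearest to Fgfr2, a receptor gene of the FGF list, had 3.37 and 2.73 in the DMSO replicates. The C59 consensus peak that overlapped it had a fold of 4.00 at a summit outside the region. Consensus folds come from both replicates called together, so they are not a like measure to folds of single replicates. In the reverse direction 12 of the 732 C59-only regions overlapped a DMSO consensus peak.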

How the results depend on the processing

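The number of DMSO-only regions depended on the lists. It was 572 with a fold of at least 4 in all lists (441 C59-only), 481 and 154 with the DMSO lists alone held to a −log10 q of 3 and 5 (1242 and 2383 C59-only), and 2584 by the consensus lists (2054 C59-only). With 1 library left out it ranged from 1498 to 4279, since a class then needs 1 list fewer: 4279 and 3177 without DMSO replicates 1 and 2, and 2277 and 1498 without C59 replicates 1 and 2. It was 774 with all lists at a −log10 q of 3 and 1015 without regions in the C59 consensus list, a limit added after the data were seen. The promoter share was 19.9% at a TSS limit of 500 bp, 30.2% at 2500 bp, 20.7% with protein-coding TSSs, 28.5% with DMSO lists at a −log10 q of 3, and 19.3 to 28.1% with 1 library left out.

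The share overlapping β-catenin was 23.7% by DMSO replicate 2, 7.77% by summits inside, 28.2% within 1000 bp, 25.9% in the fixed window and 11.8 to 20.2% with 1 H3K27ac library left out, lowest without DMSO replicate 1 (11.8%) and 2 (13.2%). The median fold was 3.802 in the consensus list and 3.35 to 3.45 with 1 replicate. The share with a core at the H3K27ac summit was 16.7% in 400 bp, 17.6% in the whole region, 4.27% for ATCAAAG alone and 6.90 to 8.37% with 1 library left out. For β-catenin summits inside the regions, alternatives added after the data were seen gave a core in 31.4% for ATCAAAG alone, 28.2% and 61.7% by fold, 32.8% by replicate 2 and 34.0 to 45.3% with 1 library left out. The difference in β-catenin overlap between DMSO and C59 was 22.5 points with a replicate block as without, and 21.6 to 23.5 points with 1 library left out. Shared replicate numbers come from separate pools, and whether they pair the samples was not tested.

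A median summit of 15 fragments leaves the level in one library imprecise, and the C59 replicate lists hold no H3K27ac value in these regions.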
